A study of Mus musculus with 24 samples.

Results

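The genes described here are 10 regulators of mesendoderm, the shared precursor of mesoderm and endoderm: T, Eomes, Mixl1, Gsc, Mesp1, Tbx6, Gata4, Gata6, Sox17 and Cer1. They were picked by name for their textbook roles in gastrulation, with earlier results of these data known, and are 10 of the 49705 gene entries in the deposited table. RNA-seq was performed on a time course of optic vesicle (OV) organoids, aggregates of mouse embryonic stem cells (mESCs) that turn into early eye tissue. All cells were of 1 line, Rx-GFP K/I EB5, in which GFP is knocked into the locus of Rax, the gene that marks the eye field. The groups share this genotype and, per the labels, a GMEM medium with 1.5% knockout serum replacement, and differ in day and sort. The methods of the study also name a chemically defined medium for its initial organoids, so the medium of these libraries is uncertain. Each organoid was started from 4500 cells on day 0, and Matrigel, a basement membrane extract, was added to 2% on day 1. The 24 libraries formed 8 groups of 3 biological replicates, each replicate pooling 24 organoids: live cells on days 0, 1, 2 and 3, and GFP-negative and GFP-positive cells on days 4 and 5. The GFP-negative gate also took cells with low GFP, the GFP-positive gate took cells with moderate as well as high GFP, and day 3 cells were not separated by GFP.

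In the embryo, Nodal and Wnt signals induce the primitive streak in the posterior epiblast, and cells that pass through it become mesoderm and definitive endoderm. The T-box factors T and Eomes are among the first streak genes, and different mixtures of their targets lead to axial, paraxial, cardiac or endodermal fates. Several of the same factors, Gata4, Gata6 and Sox17 in particular, also serve extraembryonic endoderm, a lineage that mESC cultures can give rise to without a streak.

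In these organoids the regulators followed 2 courses. T, Eomes, Mixl1, Gsc, Mesp1, Tbx6 and Cer1 rose between day 0 and day 3, had their highest mean in day 4 GFP-negative cells and stood lower in day 5 GFP-negative cells. Gata4 and Gata6 started high on day 0 and stood lower in every library of days 2 and 3, whereas the replicates of Sox17 overlapped over days 0 to 3. All 3 had on day 5 in GFP-negative cells a mean above that of day 4, with overlapping replicates. On day 4 every one of the 10 was lower in the GFP-positive gate, with GFP-negative means 7.08 to 20.2 times as high.

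Normalized counts, which are reads per gene after scaling for library depth by the authors, summed to between 39849111 and 51587535 per library, and 1 read was worth an estimated 0.801 to 1.39 of them. Rank correlations between replicates were 0.979 to 0.993, except that pairs with day 0 replicate 1 had 0.953 or 0.954. Rax, the gene that carries the GFP, averaged 9559 ± 436 in day 4 GFP-positive and 975 ± 38.4 in day 4 GFP-negative cells (SD, n = 3 each), which bears on the sort and not on the regulators. On day 5 Rax averaged 8608 ± 463 and 447 ± 60.6 (SD, n = 3 each). In bulk samples such as these, fewer cells that express a gene and less RNA per cell cannot be told apart.

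Upstream sequence is shown for T and Mesp1 because these 2 streak regulators had the most alike courses, a choice made after seeing the values, and both have a TCF/LEF letter match near the start, the kind of site through which Wnt signals act. RefSeq's promoter table (GRCm38.p6) held 6 of the 10 genes, T, Eomes, Gsc, Mesp1, Tbx6 and Cer1, and no entry for Mixl1, Gata4, Gata6 and Sox17. The 250 bases before each start were searched on both strands. The TCF/LEF letters were CTTTGAA or CTTTGAT, and also CTTTGTA or CTTTGTT. The letters GGTGTGA stood for T-box factors, TGTNNATT for FOXH1 and TATAAA for the TATA box. The 250 bases before T lie at chr17:8434173-8434422 on the plus strand of GRCm38.p6, and capitals mark the TCF/LEF match, on the opposite strand, 235 to 229 bases before the start.
T upstream: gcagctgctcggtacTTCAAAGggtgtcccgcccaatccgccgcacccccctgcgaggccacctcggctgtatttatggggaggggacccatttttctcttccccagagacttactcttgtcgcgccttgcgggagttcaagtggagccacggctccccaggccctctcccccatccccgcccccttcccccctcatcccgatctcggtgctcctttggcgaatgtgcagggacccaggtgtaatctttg
The Mesp1 windows are 30 bases each on the minus strand, at chr7:79793645-79793674 and chr7:79793603-79793632 of the same build, with capitals marking matches 73 to 67 and 31 to 25 bases before RefSeq's start. That start lies 198 bases inside the gene as the deposited table draws it, so the windows are upstream for RefSeq and inside the gene for the table.
Mesp1 distal match: ccctgctatggTTCAAAGggttcaggccct
Mesp1 proximal match: gctcgagccggCTTTGATatgctgatgaat
TCF/LEF letters were thus found before 2 of the 6 genes, where 14.8% of 32851 promoters of the same length hold them. TATAAA was found 43 to 38 bases before Tbx6 and 164 to 159 bases before Gsc, against 12.4% of all promoters. RefSeq's start of Gsc lies 94 bases inside the gene as the table draws it. No T-box or FOXH1 letters were found before the 6 genes, and 3.33% and 10.9% of all promoters hold them.

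The genes lie on 8 chromosomes of mm10, and all are protein-coding. T (ENSMUSG00000062327) is on chromosome 17 from 8434423 to 8442496 and Eomes (ENSMUSG00000032446) on chromosome 9 from 118478212 to 118486132, both on the plus strand. The other genes of this paragraph run on the minus strand unless stated. Mixl1 (ENSMUSG00000026497) spans 180693043 to 180697034 of chromosome 1, and Gsc (ENSMUSG00000021095) spans 104471209 to 104473330 of chromosome 12. Chromosome 7 carries Mesp1 (ENSMUSG00000030544), from 79792241 to 79793788, and Tbx6 (ENSMUSG00000030699), from 126781483 to 126785560 on the plus strand. Gata4 (ENSMUSG00000021944) spans 63198922 to 63271692 of chromosome 14, and Gata6 (ENSMUSG00000005836) lies on the plus strand of chromosome 18, 11052064 to 11085635. Sox17 (ENSMUSG00000025902) spans 4490931 to 4497354 of chromosome 1, and Cer1 (ENSMUSG00000038192) spans 82881751 to 82885148 of chromosome 4. Values count reads over whole transcripts, and whether the counting used strand is not given in the sources used here. Reads of Eomes can therefore not be told from those of the antisense gene Gm33460, which overlaps it by 574 bases and had group means of 0.303 to 29.8. Sox17 overlaps the antisense gene Gm37587 by 804 bases, with group means of 0 to 4.85, and Gata6 overlaps 1010001N08Rik, not analysed here.

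**Figure D1:**
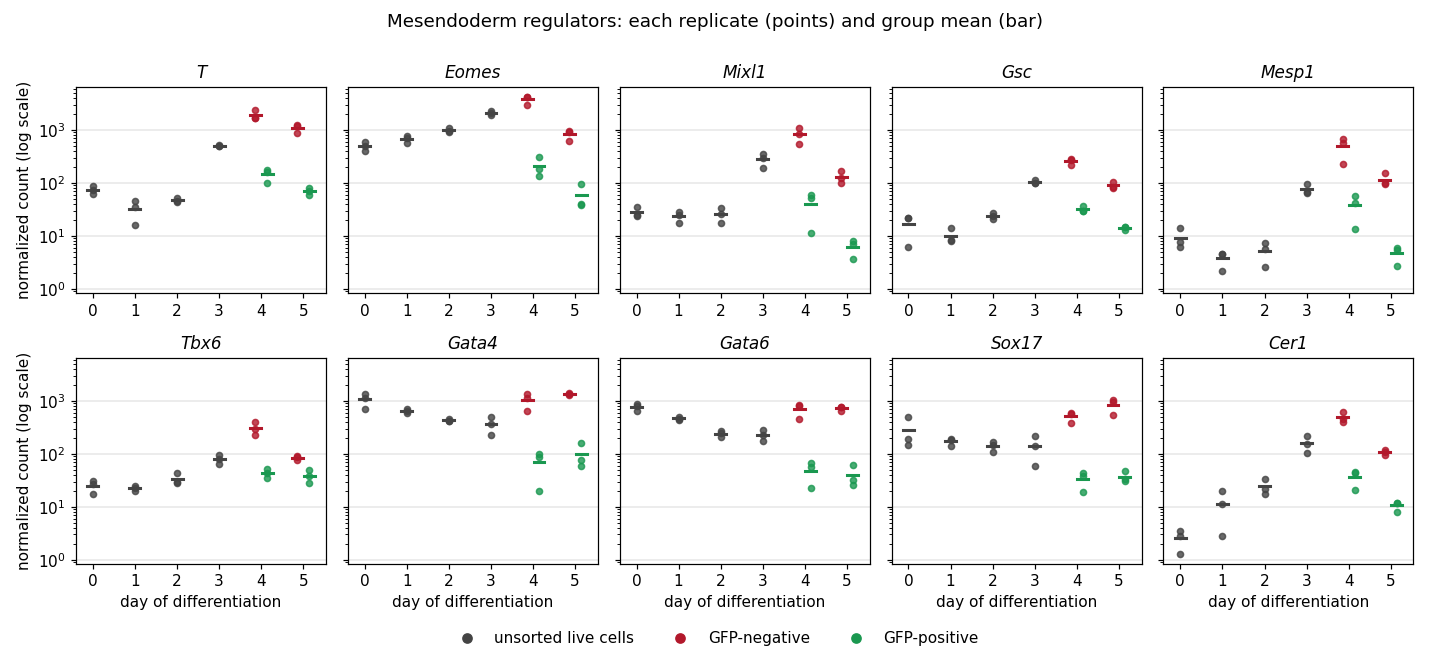
Normalized counts (log axis) of the 10 regulators against day of differentiation, with each of 3 replicates as a point and the group mean as a bar; grey marks unsorted live cells, red GFP-negative and green GFP-positive cells. The first 6 genes and Cer1 peak in red on day 4, while Gata4 and Gata6 are lower on days 2 and 3 than on day 0, and these 2 and Sox17 overlap in red between days 4 and 5.

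Levels of different genes were compared per kilobase of the longest coding transcript. In day 4 GFP-negative cells, where most regulators peaked, Eomes had 1063 ± 200 and T 941 ± 207 normalized counts per kilobase (SD, n = 3 each), and the replicates of the 2 genes overlapped. Mesp1 followed at 386 ± 186, Mixl1 at 360 ± 119, Gata4 at 308 ± 110 and Cer1 at 281 ± 58.5 (SD, n = 3 each). Gata6 at 214 ± 61.8, Gsc at 202 ± 29.5, Tbx6 at 177 ± 46.8 and Sox17 at 157 ± 36.7 were lowest (SD, n = 3 each). Beyond the step from T to Mesp1, neighbours in this order overlapped in their replicates. On day 0 the order was different, with Gata4 at 313 ± 99.4, Gata6 at 237 ± 34.8 and Eomes at 141 ± 27.8 per kilobase above the other 7 genes in the mean, and Cer1 lowest at 1.46 ± 0.669 (SD, n = 3 each).

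T, the T-box factor that drives mesoderm formation at the streak and in the notochord, had 73.6, 89.3 and 60.8 normalized counts in the 3 replicates of day 0. Values were 43.3, 45.0 and 53.0 on day 2 and 495, 508 and 512 on day 3. The day 3 replicates were close to each other and far above every earlier library. Between days 2 and 3 T rose by 3.40 log2 units (SE 0.29, limma BH-adjusted p = 1.741e-07), or 10.7 times in the means. BH stands for the Benjamini-Hochberg adjustment, made over all genes tested. In day 4 GFP-negative cells T had 1672, 2414 and 1689 normalized counts, against 98.8, 163 and 172 in GFP-positive cells. The 2 gates did not overlap, and day 3 lay between them. Day 5 GFP-negative cells had 1226, 875 and 1171, and GFP-positive cells 69.3, 80.6 and 58.1. T thus kept 56.7% of its day 4 mean in GFP-negative cells, the largest share among the 7 streak regulators, and the step of -0.81 (SE 0.29) did not pass the test (limma BH-adjusted p = 0.0789).

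Eomes, the T-box factor needed for definitive endoderm and for the mesoderm of the heart, was expressed from the start, with 499, 604 and 407 normalized counts on day 0. Day 2 had 928, 1088 and 966, and day 3 had 1950, 2128 and 2236. The 3 groups did not overlap, so that Eomes climbed by steps where T jumped. Over days 0 to 3 Eomes rose by 2.08 log2 units (SE 0.29, limma BH-adjusted p = 6.81e-06), while the last step alone, 1.08 (SE 0.29), stayed under the fold threshold. Day 4 GFP-negative cells had 2964, 4243 and 4146 normalized counts and GFP-positive cells 137, 182 and 311. By day 5 the GFP-negative replicates had 629, 921 and 975, within the span of days 1 and 2 together. Eomes thus fell between those days (log2 fold change -2.17, SE 0.29, limma BH-adjusted p = 3.717e-05). GFP-positive cells on day 5 had 40.7, 95.1 and 38.1, the lowest group for Eomes.

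Tbx6, which specifies paraxial mesoderm as cells leave the streak, had 26.7, 17.5 and 30.3 normalized counts on day 0 and 79.4, 93.8 and 65.2 on day 3. Day 4 GFP-negative cells had 231, 392 and 294, all above the day 3 libraries. The rise over this step was 1.91 (SE 0.27, limma BH-adjusted p = 2.26e-05). GFP-positive cells had 34.8, 43.9 and 50.7 on day 4 and 27.9, 49.0 and 38.1 on day 5. In GFP-negative cells the day 5 values of 77.0, 86.4 and 89.3 were back within the range of day 3. The gates on day 5 were therefore closer for Tbx6 than for the other 9 genes, at 2.20 times in the means, although their replicates did not overlap.

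Mixl1 is a homeobox factor of the streak that directs endoderm formation. It had 17.2, 33.2 and 26.3 normalized counts on day 2 and 194, 345 and 295 on day 3. Its rise of 3.40 on the log2 scale (SE 0.46, limma BH-adjusted p = 3.963e-05) came after 3 days without a clear difference between groups. Day 4 GFP-negative cells had 543, 1089 and 844 normalized counts and GFP-positive cells 11.4, 51.3 and 60.1. The day 5 GFP-negative values of 102, 166 and 127 were all below day 3, and the fall from day 4 was the largest among the 10 genes (log2 fold change -2.61, SE 0.46, limma BH-adjusted p = 0.0005704). In GFP-positive cells of day 5 Mixl1 had 3.64, 6.90 and 8.14, which amount to an estimated 4 to 9 reads per library, so this level is poorly resolved.

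Gsc, a homeobox repressor of the anterior streak and organizer, had 22.3, 21.5 and 6.22 normalized counts on day 0, 27.5, 23.5 and 21.1 on day 2 and 112, 97.8 and 100 on day 3. It rose by 2.06 over the last step (SE 0.33, limma BH-adjusted p = 0.0002487). Day 4 GFP-negative cells had 214, 284 and 272 and day 5 GFP-negative cells 105, 84.9 and 81.0. The day 5 values overlapped those of day 3. In GFP-positive cells Gsc had 29.7, 30.2 and 37.0 on day 4 and 12.8, 15.0 and 14.5 on day 5, close to day 0.

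Mesp1, the bHLH factor of nascent cardiac and cranial mesoderm, was close to the detection limit before day 3. Day 2 libraries had 5.74, 7.48 and 2.64 normalized counts, an estimated 3 to 7 reads each, whereas day 3 libraries had 97.4, 64.1 and 67.6. The rise was 3.68 (SE 0.49, limma BH-adjusted p = 3.979e-05). In day 4 GFP-negative cells Mesp1 had 223, 580 and 674, the widest relative spread of the 10 genes in that group. A further rise of 2.55 from day 3 (SE 0.49, limma BH-adjusted p = 0.0008091) lay close to the threshold. GFP-positive cells had 13.7, 42.1 and 57.6 on day 4 and 2.75, 6.01 and 5.43 on day 5. GFP-negative cells of day 5 had 94.6, 151 and 98.2, which overlapped day 3.

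Cer1 encodes Cerberus, a secreted inhibitor of Nodal and BMP made by anterior endoderm and also by the streak. It had 2.79, 1.27 and 3.55 normalized counts on day 0, an estimated 1 to 4 reads per library and 7 in all (exact 95% Poisson interval 2.81 to 14.4, counting error only). Day 1 had 11.3, 2.76 and 19.6, day 2 had 21.8, 33.2 and 17.6, and day 3 had 212, 155 and 104. Cer1 was the only one of the 10 with a mean that went up at each of the 3 steps by more than 1 on the log2 scale, although the first 2 steps, 1.54 (SE 0.47) and 1.31 (SE 0.47), were not called. From day 2 to day 3 it rose by 2.64 (SE 0.47, limma BH-adjusted p = 0.000612). Values were 458, 603 and 407 in day 4 GFP-negative cells and 20.5, 43.0 and 45.5 in day 4 GFP-positive cells. On day 5 they were 119, 95.0 and 107 in GFP-negative and 11.9, 11.9 and 8.14 in GFP-positive cells, all below the day 4 values of the same gate.

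Gata4, a zinc-finger factor of endoderm and heart, began high, with 1364, 1133 and 699 normalized counts on day 0. It had 446, 409 and 422 on day 2 and 502, 363 and 226 on day 3. Every library of days 2 and 3 lay below every library of day 0, but the change from day 0 to day 3 of -1.57 (SE 0.45, limma BH-adjusted p = 0.007436) did not pass the threshold. In GFP-negative cells Gata4 had 633, 1142 and 1362 on day 4 and 1383, 1327 and 1278 on day 5. Day 4 GFP-positive cells had 20.1, 100 and 86.2 and those of day 5 had 58.5, 157 and 77.3, below every library of the other 6 groups.

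Gata6, which specifies primitive endoderm and acts beside Gata4 in endoderm and heart, had 789, 868 and 646 normalized counts on day 0, 269, 243 and 209 on day 2 and 227, 285 and 175 on day 3. It fell over the first 3 days (log2 fold change -1.76, SE 0.33, limma BH-adjusted p = 0.0001603), the only regulator called lower. Day 4 GFP-negative cells had 461, 820 and 793 and day 5 GFP-negative cells 648, 764 and 755, values that overlapped each other and day 0. GFP-positive cells had 22.7, 66.0 and 55.8 on day 4 and 25.4, 60.8 and 31.7 on day 5.

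Sox17, the SRY-box factor that defines definitive endoderm and is also on in extraembryonic endoderm, had 505, 190 and 148 normalized counts on day 0. The highest of these is day 0 replicate 1, the library that correlated least with its group. Day 3 had 219, 143 and 57.7, a spread that took in days 1 and 2. GFP-negative cells had 375, 559 and 598 on day 4 and 1041, 549 and 942 on day 5, so that the day 5 mean was 165% of the day 4 mean with overlapping replicates. GFP-positive cells had 19.3, 42.9 and 37.7 on day 4 and 30.6, 46.5 and 33.9 on day 5, lower than every library of the other 6 groups.

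For the early days, the regulators were set against all genes tested. Calling a gene took a BH-adjusted p below 0.001 together with a log2 fold change of over 1.5 in size. None of the 10 regulators was called from day 0 to day 1 or from day 1 to day 2, where 0.738% and 1.47% of the 21005 genes tested were called in either direction. At an unadjusted p under 0.05 (limma) the count was 4 in each step, beside 22.5% and 28.2% of all genes at that p, T, Mesp1, Gata6 and Cer1 in the first and T, Gsc, Gata6 and Cer1 in the next. T was lower on day 1 than on day 0 without overlap, by -1.28 on the log2 scale (SE 0.29, limma BH-adjusted p = 0.005669).

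From day 2 to day 3, 5 of the 10 regulators were called higher, T, Mixl1, Gsc, Mesp1 and Cer1, against 0.714% of all genes. Eomes and Tbx6 were also higher in every day 3 library than in any day 2 library, at 1.08 (SE 0.29) and 1.22 (SE 0.27). Gata4, Gata6 and Sox17 had log2 fold changes of -0.30, -0.09 and -0.19 with overlapping replicates. The median over the 10 genes was 1.64, where that over all genes was -0.02. Leaving out any 1 of the 6 libraries compared removed the calls of Gsc and Cer1 and left 3 calls, with log2 fold changes of 1.98 to 2.16 for Gsc and 2.39 to 2.90 for Cer1. T, Mixl1 and Mesp1 kept their calls in each of these fits. With limma treat, a test against the fold threshold itself, 0 of the 10 were called.

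Over the whole period from day 0 to day 3, 7 regulators were called higher and 1 lower, where 5.91% and 6.12% of all genes were. The 7 were the streak regulators, and their fold changes ran from 1.66 for Tbx6 to 5.48 for Cer1 on the log2 scale. The value of Cer1 depends on the added 1, since its day 0 libraries hold so few reads. Without day 0 replicate 1 the same 8 genes were called. A fit of only the day 0 and day 3 libraries called 4, T, Eomes, Mixl1 and Cer1, and limma treat called 1, Cer1. Over the fits that each left out 1 library, the log2 fold change was 1.43 to 1.81 for Tbx6 and 5.19 to 5.75 for Cer1. Leaving out day 0 replicate 2 removed the calls of Tbx6 and Gata6, and leaving out day 3 replicate 3 removed that of Gata6.

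**Figure D2:**
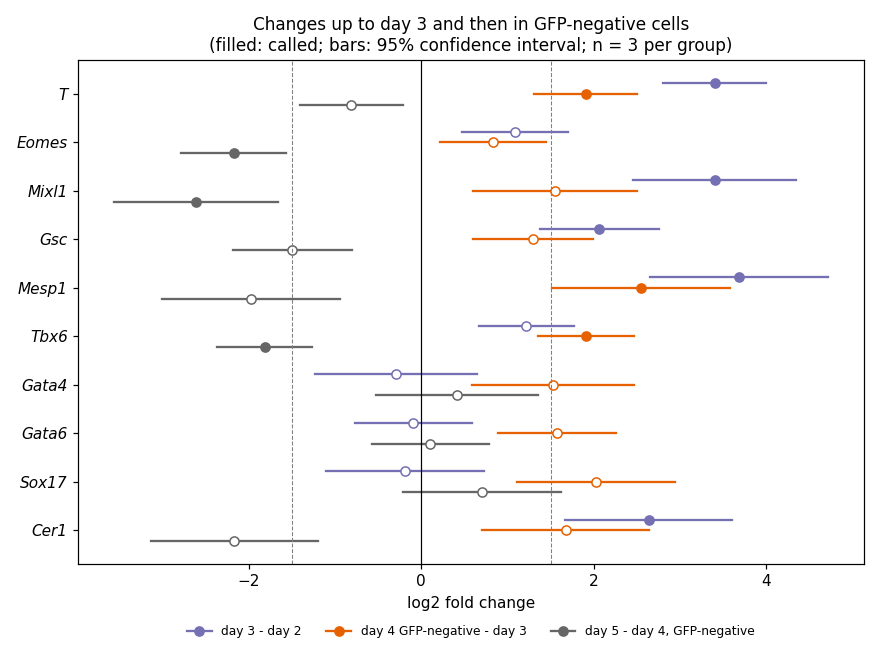
Log2 fold changes (x axis) of each regulator over 3 steps, from day 2 to day 3, from day 3 to day 4 GFP-negative and from day 4 to day 5 within GFP-negative cells, with 95% confidence intervals and n = 3 per group; filled points passed the test and dashed lines mark the fold threshold of 1.5. The intervals of Gata4, Gata6 and Sox17 include 0 in the first and the last step, where those of the other 7 genes lie above and below 0.

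The cells sorted on day 4 were compared with unsorted day 3 cells, separately for each gate. In GFP-negative cells all 10 had a higher mean than on day 3 with no overlap between groups, and 3 were called, T, Mesp1 and Tbx6, against 2.00% of all genes. The 7 others had log2 fold changes between 0.83 for Eomes and 2.03 for Sox17, and their adjusted p values ran from 0.001498 for Gata6 to 0.05432 for Eomes (limma, BH-adjusted). Without day 3 replicate 1, 2 or 3, or without day 4 GFP-negative replicate 2 or 3, Mesp1 lost its call. In GFP-positive cells all 10 had a lower mean than on day 3, again with no overlap, and 6 were called, T, Eomes, Mixl1, Gsc, Gata4 and Gata6, against 7.36% of all genes. Eomes fell the furthest (log2 fold change -3.40, SE 0.29, limma BH-adjusted p = 7.289e-09). Cer1 at -2.10 and Sox17 at -1.92 missed the threshold with adjusted p values of 0.001043 and 0.001435 (limma, BH-adjusted), and both were called when day 0 replicate 1, which is in neither group, was left out of the fit. Gsc lost its call in each fit that left out 1 of the 6 libraries compared, and Gata4 lost its call without day 3 replicate 1. A fit of only the groups compared called 1 and 3 regulators in GFP-negative and GFP-positive cells, and limma treat 0 and 1. Both comparisons share the day 3 libraries.

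Between the gates on day 4, all 10 regulators were called lower in GFP-positive cells, against 3.63% of all genes. The log2 fold changes ran from -2.78 for Tbx6 to -4.54 for Mixl1, and the median was -3.84 beside 0.01 over all genes. Mixl1 stood at 20.2 times and Eomes at 18.0 times the GFP-positive mean in GFP-negative cells, Gsc at 7.96 times and Tbx6 at 7.08 times. The largest adjusted p among the 10 was 9.82e-06, for Mesp1 (limma, BH-adjusted). All 10 calls were kept in every fit that left out 1 library of the comparison, and with each sorted pool as a block. Limma treat called 5.

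On day 5, 9 of the 10 were called lower in GFP-positive cells, against 4.61% of all genes. On the log2(value + 1) scale Sox17 had -4.44 (SE 0.44), Mesp1 -4.35 (SE 0.49), Gata6 -4.26 (SE 0.33) and Mixl1 -4.22 (SE 0.46), and the median over the 10 was -3.95. In ratios of means the same genes stood at 22.8, 24.2, 18.4 and 21.1 times the GFP-positive mean in GFP-negative cells. Tbx6 alone was not called, at -1.15 (SE 0.27, 95% confidence interval -1.70 to -0.60, limma BH-adjusted p = 0.003603). The 9 calls were kept in every fit that left out 1 library of the comparison.

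Genes of other classes were also called between the gates. Of 13 markers of pluripotent cells, 11 were called lower in GFP-positive cells on each day, against 3.63% and 4.61% of all genes on days 4 and 5, and their summed level was 64776 to 78930 in day 4 GFP-negative libraries against 27293 to 32031 in GFP-positive ones. On day 5 the sums were 25529 to 26673 and 13471 to 14163. Most of the GFP-positive sums came from Sox2, which neural cells also use, and Dnmt3b, the 2 markers not called, with means of 11787 and 15441 on day 4. Pou5f1, which encodes the pluripotency factor Oct4, had means of 7088 in day 4 GFP-negative against 792 in GFP-positive cells, and 1275 against 76.7 on day 5. Of 10 eye-field and anterior neural genes, 6 were called higher in GFP-positive cells on each day, against 0.328% and 0.400% of all genes, with sums of 75085 to 79493 against 26966 to 30525 on day 4 and 82272 to 87975 against 24825 to 25238 on day 5. Of 9 surface ectoderm and neural crest genes tested, 3 were called lower on each day, against the same 3.63% and 4.61%. The part of these cell classes in the difference of the regulators was not tested.

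**Figure D3:**
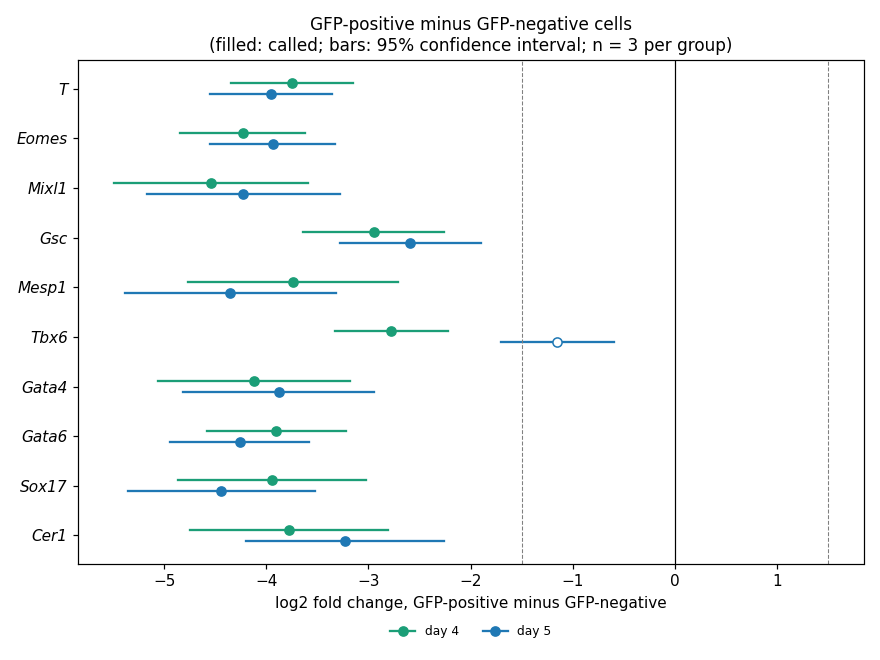
Log2 fold change of GFP-positive minus GFP-negative cells (x axis) for each regulator on day 4 (green) and day 5 (blue), with 95% confidence intervals and n = 3 per group; filled points passed the test and dashed lines mark the fold threshold of 1.5. All intervals lie below 0, and Tbx6 on day 5, at -1.15, is the only point that was not called.

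Whether the distance between the gates itself shifted between the days was tested with an interaction term. None of the 10 regulators was called, where 0.109% of all genes were, and 1 of them, Tbx6, had an unadjusted p under 0.05 (limma), as 9.40% of all genes did. Its gate difference shrank by 1.63 on the log2 scale (SE 0.38, 95% confidence interval 0.85 to 2.41, limma BH-adjusted p = 0.0334). At an adjusted p under 0.05 with no fold threshold, 0.528% of all genes had such a difference in the same direction. The other 9 regulators had changes between -0.62 for Mesp1 and 0.55 for Cer1, with 95% confidence intervals of up to 1.92 in size above 0 and 2.07 below it.

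Within GFP-negative cells from day 4 to day 5, 3 regulators were called lower, Eomes, Mixl1 and Tbx6, against 0.509% of all genes. Cer1, Mesp1, Gsc and T were lower without overlap and not called, at -2.17 (SE 0.47), -1.98 (SE 0.49), -1.49 (SE 0.33) and -0.81 (SE 0.29). The 7 streak regulators kept between 15.9% of their day 4 mean for Mixl1 and 56.7% for T. Gata4 stood at 127%, Gata6 at 104% and Sox17 at 165%. Their log2 fold changes were 0.42 for Gata4 (95% confidence interval -0.52 to 1.36), 0.11 for Gata6 (-0.58 to 0.79) and 0.70 for Sox17 (-0.22 to 1.62). Without day 4 GFP-negative replicate 2, only Eomes was called, and Mixl1 lost its call in each fit that left out 1 library of these groups. Limma treat called 0 in this step.

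Within GFP-positive cells over the same step, only Eomes was called lower, at -1.88 (SE 0.29, limma BH-adjusted p = 0.0001578), against 0.890% of all genes. Mesp1 at -2.59 (SE 0.49, limma BH-adjusted p = 0.001174) and Mixl1 at -2.29 (SE 0.46, limma BH-adjusted p = 0.001721) missed the threshold. Gata4, Gata6, Sox17 and Tbx6 overlapped between the days. Without day 4 GFP-positive replicate 3, or day 5 GFP-positive replicate 1 or 3, none of the 10 was called, and without day 4 GFP-positive replicate 1 there were 3 calls, Eomes, Mixl1 and Mesp1. Without day 0 replicate 1 there were 2, Eomes and Mesp1.

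Single libraries stood apart for many regulators at once. Day 4 GFP-positive replicate 1 was the lowest of its group for 10 of 10 genes, with a sum over them of 408 normalized counts against 765 and 914. Day 4 GFP-negative replicate 1 was the lowest for 9 of 10, with a sum of 7774 against 12124 and 11077. Rax in these libraries was 9967 against 9609 and 9100, and 960 against 1018 and 946. In day 5 GFP-positive cells replicate 2 was the highest for 9 of 10, with a sum of 529 against 284 and 313, and Rax there was 8076, the lowest of its group. With both day 4 libraries numbered 1 left out, a choice made after seeing the data, 10 regulators were again called between the gates on day 4, 5 were called higher in day 4 GFP-negative cells than on day 3, and 3 lower in day 5 than in day 4 GFP-positive cells.

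Correlations across the 24 libraries were compared between the regulators. Pearson correlations of log2(normalized count + 1) were 0.976 between Gata4 and Gata6, 0.935 between Gata4 and Sox17 and 0.901 between Gata6 and Sox17. Among T, Gsc, Mesp1, Tbx6, Mixl1 and Cer1 they ran from 0.838, between Mixl1 and Cer1, to 0.946, between T and Mesp1. Eomes had 0.847 with Mixl1 but 0.562 with T, and its values with Gata4, Gata6 and Sox17, 0.678 to 0.737, exceeded those with T, Tbx6, Mesp1 and Cer1. Cer1 and Gata6 were the least alike at 0.172. These are descriptions over libraries that share groups, so the 24 points are not independent.

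**Figure D4:**
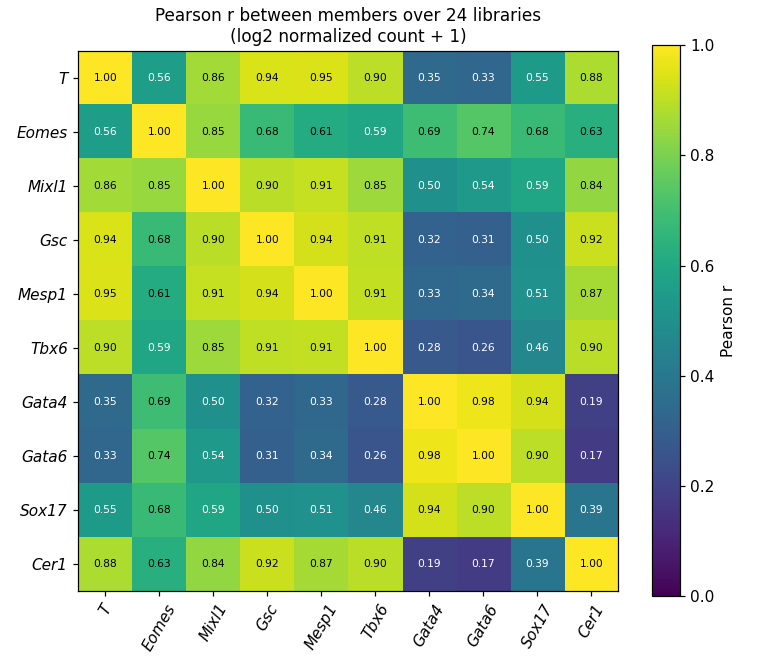
Pearson r between each pair of regulators over the 24 libraries, on log2(normalized count + 1), with the value in each cell and r as the colour. Gata4, Gata6 and Sox17 form a block at 0.901 to 0.976, and the streak regulators without Eomes another at 0.838 to 0.946.

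The 3 genes most like each regulator over the 24 libraries were ranked by Pearson's r. For T they were Irx5 (r = 0.961), Fgf8 (0.959) and Evx1 (0.954), for Mesp1 Evx1 (0.954), T (0.946) and Gsc (0.936), and for Gsc T (0.942), Six2 (0.938) and Mesp1 (0.936). Mixl1 was most like Mesp1 (0.912), Evx1 (0.900) and Gsc (0.896). Lhx1, a LIM-homeobox gene of the organizer and nascent mesoderm, led for Cer1 (0.961), before Ror1 (0.921) and Gsc (0.918), and for Tbx6 (0.920), before Six2 (0.914) and Lhx1os (0.910). Eomes was most like Btla (0.952), Snai1 (0.930) and Wnt8a (0.914). Sox17 went most closely with Ihh (0.937), Nepn (0.936) and Gata4 (0.935). After each other, Gata4 was most like Foxq1 (0.960) and Cd55 (0.951), and Gata6 most like Tiam2 (0.967) and Cd55 (0.966).

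The signals that induce the streak were read from a list of 20 Wnt, BMP and FGF genes and their targets. From day 2 to day 3, 6 of the 20 were called higher, led by Sp5, Rspo3, Wnt3, Sp8 and Fgf8, and 1 lower, Notum, beside 0.714% and 0.290% of all genes. Sp5, a direct Wnt target, rose by 4.17 on the log2 scale (SE 0.44) to 238 normalized counts in the mean, and Wnt3, the ligand that starts the streak, by 2.37 (SE 0.43) to 103. In day 4 GFP-negative cells 10 were called higher than on day 3 and 1 lower, Fgf4, where 2.00% and 0.871% of all genes were. Among the 10 were Sp5, at a mean of 1950, and Axin2, a feedback inhibitor of Wnt, at 4109 against 1073. In day 4 GFP-positive cells 3 of these 10 were called higher than on day 3 as well, Sp8 at 3.44 (SE 0.35), Dkk1 at 3.15 (SE 0.19) and Bmp7, and 6 of the 20 were called lower, beside 3.33% and 7.36% of all genes. Between the gates 11 were called lower in GFP-positive cells on day 4 and 13 on day 5, beside 3.63% and 4.61%. Within GFP-negative cells, Wnt8a and Fgf5 were called lower on day 5 than on day 4, and Wnt5a higher, beside 0.509% and 0.762% of all genes. Over the same step Sp5 had means of 1950 and 1894 and Rspo3 of 734 and 1145. Within GFP-positive cells Wnt8a and Fgf5 were also called lower between these days, at -2.09 (SE 0.28) and -4.46 (SE 0.21), beside 0.890% of all genes. Bmp4 and Bmp7 were called higher there, as were 125 of the 21005 genes tested.

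The Nodal pathway is the other inducer of mesendoderm. Of 15 genes tested, 0 were called higher from day 2 to day 3 and 2 lower, beside 0.714% and 0.290% of all genes. The 2 were Lefty1 and Lefty2, which encode Nodal inhibitors and are Nodal targets. Nodal itself went from a mean of 3509 on day 0 through 685 on day 2 to 449 on day 3, and had 406 in day 4 GFP-negative cells. Its change from day 0 to day 3 was -2.92 (SE 0.29, limma BH-adjusted p = 4.617e-08). Tdgf1, the Nodal co-receptor, went from 33086 to 3722 over those days. Between the gates, 5 of the 15 were called lower in GFP-positive cells on day 4 and 7 of them on day 5, beside 3.63% and 4.61% of all genes, led by Tdgf1 at -4.22 and -3.95 (SE 0.39 each). Foxh1, which carries Nodal signals to DNA with Smad2 and Smad3, fell from 2887 to 1007 in GFP-negative cells between days 4 and 5 (log2 fold change -1.53, SE 0.19, limma BH-adjusted p = 1.423e-05).

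Of 17 other streak and nascent mesoderm genes tested, 3 were called higher from day 2 to day 3, Aplnr, Frzb and Evx1, against 0.714% of all genes, and 11 in day 4 GFP-negative cells against day 3, beside 2.00%. In day 4 GFP-positive cells 3 were called higher than on day 3, Frzb, Cdx4 and Dll1, and 2 lower, Tbx3 and Foxa2, beside 3.33% and 7.36% of all genes. Frzb, a secreted Wnt inhibitor, had means of 541 on day 3, 5235 in day 4 GFP-negative and 6146 in day 4 GFP-positive cells. In day 4 GFP-negative cells Hoxb1 stood above day 3 by 4.28 (SE 0.63), Cdx2 by 4.03 (SE 0.45) and Msgn1 by 3.83 (SE 0.59). Msgn1 is a partner of Tbx6 in paraxial mesoderm. Between the gates 12 were called lower in GFP-positive cells on day 4 and 11 on day 5, beside 3.63% and 4.61% of all genes. Msgn1 had means of 99.1 in day 4 and 4.13 in day 5 GFP-negative cells and was the only 1 of the 17 called lower over that step, at -4.31 (SE 0.59, limma BH-adjusted p = 4.66e-05). Cdx2 had 549 and 647 in the same groups.

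Later mesoderm was read from a lateral and a paraxial list. Of 16 lateral, cardiac and blood genes, 4 were called higher in day 4 GFP-negative cells than on day 3, Hand2, Foxf1, Kdr and Isl1, against 2.00% of all genes. Between the gates 5 were called lower in GFP-positive cells on day 4, with Kdr, and 7 on day 5, without Kdr, beside 3.63% and 4.61%. Within GFP-positive cells Kdr rose from day 4 to day 5 by 2.935 (SE 0.41). It was the only 1 of the 16 called higher there, as were 125 of the 21005 genes tested. From day 4 to day 5 in GFP-negative cells, 3 were called higher, Tal1, Cdh5 and Lmo2, against 0.762%. Other blood and endothelial genes of the list were not called over this step, among them Pecam1, with means of 305 and 248, and Gata1, with 62.4 and 36.9. Nkx2-5, the defining cardiac factor downstream of Gata4 and Mesp1, was near 0 throughout the later groups, with means of 3.49 and 9.88 in day 4 and day 5 GFP-negative cells. Of 9 paraxial genes tested, 3 were called higher in day 4 GFP-negative cells, Foxc2, Pax3 and Foxc1, against the same 2.00%, and the muscle determination gene Myf5 was at group means of 0 to 3.68 in all groups. Pax3 is also a gene of the dorsal neural tube and neural crest.

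Markers of the endodermal lineages bear on Gata4, Gata6 and Sox17. Of 18 extraembryonic endoderm genes, 2 were called lower from day 0 to day 3, Sox7 and Foxq1, where 6.12% of all genes were. Sox7 had means of 387 on day 0, 79.1 on day 3, 94.2 in day 4 GFP-negative and 286 in day 5 GFP-negative cells. The summed level of the 18 was 44613 to 78650 on day 0, 25220 to 49136 on day 3, 43710 to 64364 in day 4 GFP-negative and 88947 to 126700 in day 5 GFP-negative cells, most of it from basement membrane genes that many cells express. Between the gates 9 of the 18 were called lower in GFP-positive cells on day 4 and 13 on day 5, where 3.63% and 4.61% of all genes were. Afp, a defining gene of visceral endoderm, was near 0, with group means of 0.262 to 14.7, while Ttr had 126 and 296 in day 4 and day 5 GFP-negative cells. Of 12 definitive endoderm genes, 5 were called lower in GFP-positive cells on day 4 and 11 on day 5, beside the same 3.63% and 4.61%. Against day 3, Cxcr4 and Foxa1 were called higher in day 4 GFP-negative cells and Cldn6 lower, beside 2.00% and 0.871% of all genes. In day 4 GFP-positive cells Cxcr4 was called higher than on day 3 as well, and 5 were called lower, Cldn6 among them, beside 3.33% and 7.36%. Within GFP-negative cells 1 of the 12, Shh, rose from day 4 to day 5, by 4.07 (SE 0.60, limma BH-adjusted p = 9.745e-05), where 0.762% of all genes were called higher. Foxa2, a gene of anterior streak, endoderm and notochord, had 156 on day 3, 494 in day 4 and 853 in day 5 GFP-negative cells. Of 8 node and notochord genes, 2 were called lower in GFP-positive cells on day 4 and 4 on day 5, again beside 3.63% and 4.61%. Noto, which defines the node, had means of 8.25 and 37.8 in day 4 and day 5 GFP-negative cells. Which endodermal lineage carried Gata4, Gata6 and Sox17 was not tested, since bulk values of shared genes do not separate them.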

How the data were processed

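The authors collected biological triplicates of 24 pooled organoids, sorted live cells, prepared polyA libraries, pseudo-aligned reads with kallisto 0.43.1 to coding and non-coding RNA of mm10, and deposited a signal per gene, the abundance estimates normalized with DESeq2 size factors. Further columns, with the authors' lists of differential genes, were left aside. Only 45.0% to 76.8% of low values per library lay within 0.1 of a whole multiple of the estimated worth of 1 read, so the counts behind the values could not be rebuilt and count models were not applied. Estimated depth was 37118178 to 54547125 reads, which limits genes with few reads most.

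From these normalized counts, log2(value + 1) was taken, and the 21005 genes that reached 10 in 3 or more libraries were tested by limma, version 3.58.1, under R 4.3.3, with a mean-variance trend. All 24 libraries entered 1 fit with 1 mean per group and no block, with a median residual SD of 0.308. Benjamini-Hochberg adjustment was made within each of the 11 contrasts over all genes tested, and fold changes are on the log2(value + 1) scale, which understates those of low genes. All 10 regulators passed the filter. Calls took the study's thresholds, a BH-adjusted p below 0.001 and a log2 fold change over 1.5 in size. The script was tested on simulated data. Levels per kilobase used the longest coding transcript. Named genes are the 10 regulators, Rax, the 3 genes most correlated with each regulator, and called or near-absent genes of fixed lists; Pou5f1, Sox2, Dnmt3b, Frzb, Pecam1, Gata1, Nodal, Tdgf1, Sox7, Ttr, Foxa2, Noto, Cdx2, Sp5, Rspo3 and Axin2 were given further group means after their values were seen. The members and lists were chosen with earlier results of these data known. Alternatives were pseudocounts of 0.5 and 5, other filters, quantile normalization, no trend, fits restricted to the groups compared, the replicate block, a block of sorted pools, other thresholds, limma treat and leaving out libraries. Python 3.11.15, pandas 2.3.3, numpy 2.4.6 and matplotlib 3.10.9 were used for tables and figures.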

Additional observations from a re-analysis of the deposited data

Results flagged for a closer look

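At a BH-adjusted p under 0.05, Tbx6 was the 1 regulator whose gate difference itself differed between days, by 1.63 on the log2 scale (SE 0.38, limma BH-adjusted p = 0.0334), which is short of a call. GFP-positive values lay below GFP-negative values in all replicates of both days. The difference was 1.43 to 1.83 in fits that each left out a library, and its limma BH-adjusted p reached 0.111 without day 4 GFP-negative replicate 2. With both day 4 libraries numbered 1 left out, Tbx6 was again not called. The cause was not tested.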

How the results depend on the processing

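Fold changes of regulators with a limma BH-adjusted p under 0.05 in the main fit were followed through the alternative runs, and none reversed. Fold changes above that p were not followed. Of 485 such values from fits that left out 1 library, 439 kept their side of the threshold, 37 fell short of it and 9 newly passed. Of 761 under other settings these were 665, 60 and 36.

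With an adjusted p under 0.05 and no fold threshold, regulators called numbered 2 from day 0 to day 1, 1 from day 1 to day 2, 9 in day 4 GFP-negative cells against day 3, 6 in each gate from day 4 to day 5, and 1 for the interaction. In the same order, the shares of all genes at that threshold were 10.0%, 16.6%, 18.5%, 10.2% (GFP-negative), 9.80% (GFP-positive) and 1.10%. With limma treat, a test against the fold threshold itself, they numbered 0 from day 2 to day 3, 1 from day 0 to day 3, 0 and 1 in GFP-negative and GFP-positive cells against day 3, 5 between the day 4 gates, and 0 in either gate from day 4 to day 5. Fits of only the groups compared, with fewer libraries to estimate the spread, gave 4 from day 0 to day 3, 1 and 3 for the day 4 gates against day 3, and 0 within GFP-positive cells. With both day 4 libraries numbered 1 left out (chosen after seeing the data), 5 were called in GFP-negative cells against day 3 and 3 within GFP-positive cells. The cause was not tested.

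Leaving out 1 library gave 0 to 0 calls in the first 2 steps and the interaction, 3 to 5 from day 2 to day 3, 6 to 8 from day 0 to day 3, 2 to 4 and 4 to 8 in GFP-negative and GFP-positive cells against day 3, 10 to 10 and 9 to 9 between the gates on days 4 and 5, 1 to 3 within GFP-negative and 0 to 3 within GFP-positive cells.

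The sources describe day 4 and day 5 samples as sorted into both gates, but do not say whether gates with the same number came from 1 pool. Deviations of same-numbered gates had correlations of -0.108 to 0.0227 on day 4 and -0.075 to 0.147 on day 5. With each such pool as a block in a fit of the day 4 and day 5 libraries (chosen after seeing the data), 10 and 9 regulators were called between the gates and 0 for the interaction. Across groups of different days, nothing in the labels links libraries by number. Over all groups, same-numbered deviations had a mean correlation of -0.000542 over 28 pairs of groups, and in 1 pair of groups, day 3 and day 5 GFP-negative, every correlation was over 0.1. With the replicate block, 2 regulators were called within GFP-positive cells, where Mixl1 was gained, 4 from day 2 to day 3, where Cer1 was lost, and 3 in GFP-negative cells against day 3, where Mesp1 was lost and Gata6 gained. DESeq2 and edgeR were not run, as whole reads were not recovered. Depth limits Cer1 on day 0, Mesp1 before day 3, and Mixl1 and Mesp1 in day 5 GFP-positive cells most.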
